A study of Schizosaccharomyces pombe with 8 samples.

Results

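The data describe 40 RNAs of fission yeast (Schizosaccharomyces pombe) that were selected by an immunoprecipitation (IP) of the protein Lsm8 and then measured by RNA-Seq in cells with and without pof8. Of 44 RNAs marked in the Lsm8 IP, 40 carried read counts in the RNA-Seq table and all 40 were tested. They comprised 26 protein-coding and 14 non-coding RNAs, and the IP table they were taken from holds 7014 genes. Some of the 40 lay below the study's own cut for enrichment in the IP, as listed below. The remaining 4 listed RNAs (snu5, SPNCRNA.240, SPNCRNA.895 and SPBTRNAGLY.09) had no counts and were not analysed here. No gene outside the IP selection was analysed either, so the values below say nothing about the rest of the transcriptome.

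The comparison was between 3 libraries from pof8+ cells and 3 libraries from pof8Δ cells, in which the whole pof8 reading frame had been replaced by a kanamycin resistance cassette. Both strains are haploid h- and carry ade6-M216, leu1-32, ura4-D18 and his3-D1. The cells were grown in rich medium, total RNA was depleted of ribosomal RNA, and stranded libraries were sequenced as 100-base single-end reads. Library totals ranged from 49448968 to 72951191 reads, of which the listed RNAs took 2.14% to 2.58%. The labels do not say whether the 3 libraries of a strain came from separate cultures, so p-values measure the spread between these libraries, which may be technical. Reads of pof8 itself were not analysed here, and the strains were therefore not checked on the deleted gene.

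Pof8 is a La-family protein of the telomerase holoenzyme. The telomerase RNA of fission yeast, TER1, is made as a longer precursor whose 3′ end is formed by the first cleavage step of splicing. The Sm ring binds the precursor and is exchanged for the Lsm2 to Lsm8 ring on the mature RNA. The same Lsm ring is best known for holding the uridine-rich 3′ end of U6, the catalytic RNA of the spliceosome. The comparison asks which RNAs from the Lsm8 list change in amount when pof8 is deleted.

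TER1 and U2 are shown because they are the non-coding RNAs that passed the test described below. For U2 that result depended on the libraries used, the scaling and the estimate of spread. Sequences are from RefSeq (ASM294v3, minus strand of chromosome I), written 5′ to 3′ with every run of 4 or more T in capitals. The TER1 stretch is the last 100 bases of the first annotated exon, I:3084816-3084915. The U2 RNA is shown whole, I:959370-959556.
ter1: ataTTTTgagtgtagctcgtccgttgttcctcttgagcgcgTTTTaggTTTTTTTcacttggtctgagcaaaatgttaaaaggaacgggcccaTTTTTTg
snu2: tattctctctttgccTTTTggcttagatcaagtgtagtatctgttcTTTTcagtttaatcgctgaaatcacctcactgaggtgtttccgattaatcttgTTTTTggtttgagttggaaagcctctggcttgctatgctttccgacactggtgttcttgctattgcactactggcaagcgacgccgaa
The last run in the TER1 stretch is 6 T long and lies 1 base before the end of the exon. In U2 the last run is 5 T long and is followed by 83 bases. Such runs are common in this AT-rich genome. Of 12390 annotated genes, 66.3% hold TTTT and 16.7% hold TTTTTT in the last 100 bases of the transcript, read on the transcribed strand, and each TTTTTT is also counted as TTTT. Of the 37 listed RNAs that could be matched to this assembly, 36 hold TTTT and 23 hold TTTTTT anywhere in the spliced RNA.

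Levels are given as CPM, the read count scaled to the library total. The change is the log2 fold change of pof8Δ over pof8+ from edgeR's quasi-likelihood test, with p-values adjusted over all 40 RNAs by the Benjamini-Hochberg method, and intervals are 95% intervals from the same fit. An RNA was called at an adjusted p-value below 0.05 and an absolute log2 fold change above 1. TER1 was the 1 RNA called lower (2.5% of those tested), and 0 RNAs were called higher (0%). Without the size threshold, 4 RNAs were lower (10%) and 1 was higher (2.5%).

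TER1 (ter1, SPNCRNA.214) gave the largest change among the 40 RNAs. Its level was 234, 254 and 205 CPM in pof8+ replicates 1 to 3 and 60.3, 57.9 and 59.6 CPM in pof8Δ replicates 1 to 3. The groups were far apart, and the pof8Δ libraries lay within a narrow band. The means were 231 ± 24.6 CPM in pof8+ and 59.3 ± 1.23 CPM in pof8Δ (mean ± SD, n = 3 libraries each). TER1 thus changed by -1.96 on the log2 scale (standard error 0.113, interval -2.20 to -1.72, edgeR adjusted p = 1.22e-10), which leaves 25.7% of the pof8+ level. Leaving out each library in turn moved this estimate between -2.04 and -1.89. Under every alternative that was run TER1 passed, with an adjusted p-value (edgeR or DESeq2) of at most 0.0013. In RNA from whole cultures, less RNA per cell and fewer cells that hold the RNA cannot be told apart. The counted TER1 is 1413 bases long, against 1207 bases for the first annotated exon. Mature RNA and precursor are therefore not separated in these values. In its northern blots the study found mainly the mature form reduced.

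**Figure D1:**
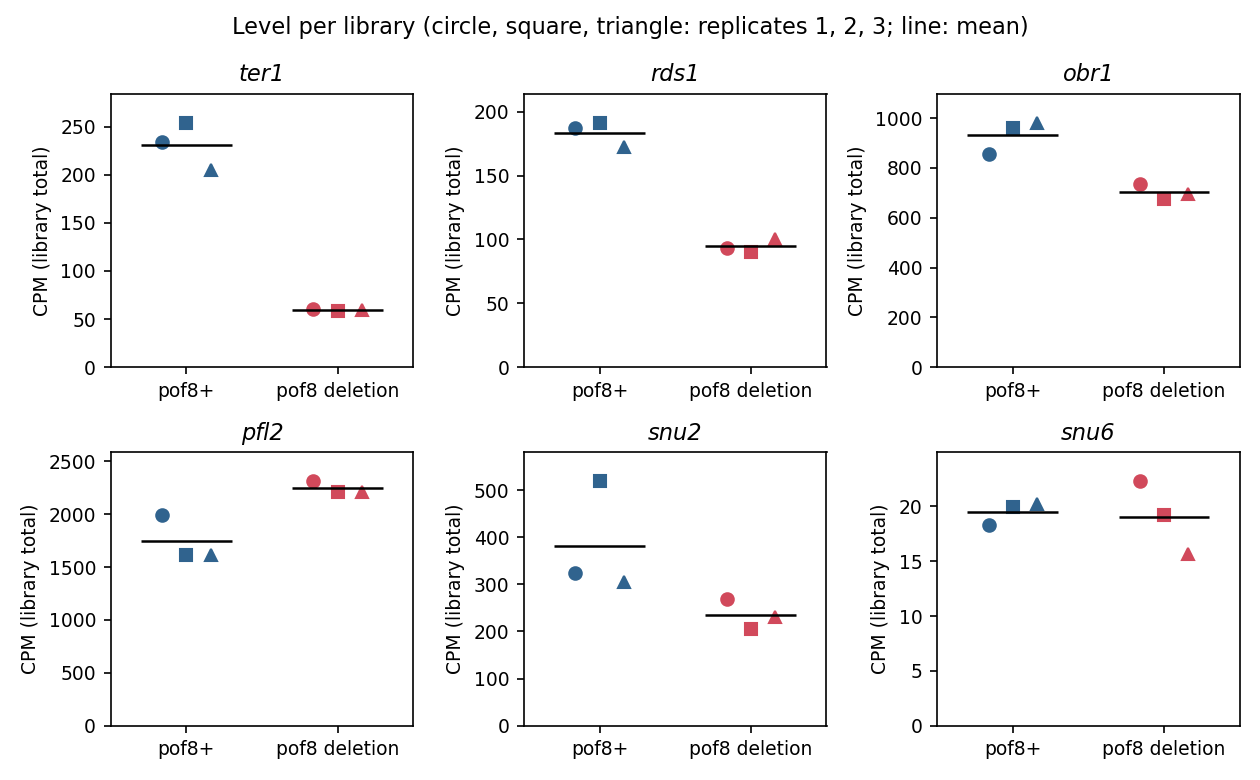
CPM per library (y axis, from 0) for the 5 RNAs with an adjusted p-value below 0.05 and for U6 (snu6). Circles, squares and triangles are replicates 1, 2 and 3, and the line is the mean of 3 libraries. All pof8Δ points for ter1 lie between 57.9 and 60.3 CPM, and the high pof8+ point of snu2 is replicate 2.

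Among the spliceosomal RNAs, U2 fell, and the changes of U4 and U6 did not pass the test. U2 (snu2, SPSNRNA.02), which pairs with the branch site of introns, was present at 323, 519 and 304 CPM in pof8+ and at 269, 204 and 231 CPM in pof8Δ. The groups did not overlap, but pof8+ replicate 2 stood well above the other libraries. The log2 fold change was -0.70 (standard error 0.162, interval -1.04 to -0.36, edgeR adjusted p = 0.00468). Without pof8+ replicate 2 it was -0.42 and no longer passed (edgeR adjusted p = 0.0528). With TMM factors over the 40 RNAs the change was -0.60 (edgeR adjusted p = 0.107), and with DESeq2 size factors over them -0.61 (edgeR adjusted p = 0.172). It stayed at -0.70 but missed the threshold with a fit that allows for outlying RNAs (edgeR adjusted p = 0.25) and with the spread of each RNA taken alone (edgeR adjusted p = 0.328). The call thus depends on 1 library, on the scaling and on how the spread is estimated, whereas the direction was the same under every alternative that was run.

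U4 (snu4), which is base-paired with U6 before the spliceosome is activated, showed 40.5, 35.9 and 24.7 CPM in pof8+ and 30.2, 21.6 and 28.8 CPM in pof8Δ. The groups overlapped through pof8+ replicate 3, the lowest of its group. Its change of -0.33 came with an interval from -0.69 to 0.04 (edgeR adjusted p = 0.286). Without pof8+ replicate 3 it was -0.51 and passed (edgeR adjusted p = 0.0118).

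U6 (snu6) was at 18.3, 19.9 and 20.2 CPM in pof8+ and at 22.3, 19.2 and 15.7 CPM in pof8Δ. The pof8Δ libraries lay on both sides of the pof8+ libraries. A log2 fold change of -0.03 was fitted, with an interval of -0.34 to 0.28, which does not reach a change of 1 in either direction.

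None of the 5 small nucleolar RNAs (snoRNAs), which guide or assist the processing and modification of ribosomal RNA, passed the test. The share of all 40 RNAs that passed was 10% as lower and 2.5% as higher. The log2 fold changes of the snoRNAs ran from -0.22 (sno12) to 0.04 (snoU14), with 3 below 0. Sno12 was the most abundant of them, at 293, 308 and 233 CPM in pof8+ and 265, 224 and 227 CPM in pof8Δ. The groups overlapped through pof8+ replicate 3, and the change of -0.22 missed the threshold (edgeR adjusted p = 0.286). Without that library it was -0.33 and passed (edgeR adjusted p = 0.0282). SnR42 was at 65.4, 68.0 and 57.3 CPM in pof8+ and at 63.4, 47.9 and 56.3 CPM in pof8Δ, a change of -0.19. The box C/D RNA snoU14 was at 23.9, 27.2 and 20.04 CPM in pof8+ and at 26.8, 22.9 and 23.6 CPM in pof8Δ. In both, the libraries of the groups overlapped. SnR36 was at 2.97, 2.78 and 2.39 CPM in pof8+ and at 2.62, 2.90 and 2.43 CPM in pof8Δ, a change of -0.04. SnoR61, with a change of 0.00, was at 54.1, 57.4 and 66.5 CPM in pof8+ and at 65.2, 59.1 and 54.2 CPM in pof8Δ. These groups overlapped as well, and the intervals of all 5 snoRNAs lay within 0.58 on either side of 0.

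Beside shares over all 40 RNAs of 10% passing as lower and 2.5% as higher, the 5 antisense and intergenic RNAs other than TER1 had no member that passed. Their log2 fold changes lay between -0.16 (SPAC8E11.01c-antisense-1) and 0.06 (obr1-antisense-1), and 4 of 5 were below 0. SPNCRNA.1531 and SPNCRNA.1532, overlapping RNAs with the highest IP ratios of the list, changed by -0.11 and -0.07. SPNCRNA.1532 was at 11.0, 11.2 and 13.97 CPM in pof8+ and at 11.63, 11.9 and 11.0 CPM in pof8Δ. The interval of SPNCRNA.1532, -0.37 to 0.23, does not reach the size of the TER1 change. The least abundant RNA per length, SPNCRNA.1531, was at 2.27, 2.61 and 2.51 CPM in pof8+ and at 2.15, 2.19 and 2.49 CPM in pof8Δ, and SPAC8E11.01c-antisense-1 was at 3.47, 3.31 and 3.92 CPM in pof8+ and at 2.95, 3.51 and 3.139 CPM in pof8Δ. Both overlapped between the groups. SPNCRNA.1464 had the widest interval of the 40 RNAs, -0.61 to 0.45.

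The stress and redox genes rds1, obr1 and grx1 were all lower in every pof8Δ library than in every pof8+ library, and rds1 and obr1 passed the test. Over all 40 RNAs, 20% were lower without overlap and 10% passed as lower, and this list was drawn up with earlier results of these data known. The gene rds1 (SPAC343.12) is known to respond to nutrients and stress. It was at 187, 191 and 172 CPM in pof8+ and at 93.6, 89.8 and 100 CPM in pof8Δ. Both groups were tight and well separated. The log2 fold change was -0.96 (standard error 0.106, interval -1.18 to -0.74, edgeR adjusted p = 1.32e-06), or 51.5% of the pof8+ level. This lies just outside the size threshold of 1, and it crossed the threshold, at -1.002, when pof8+ replicate 3 or pof8Δ replicate 3 was left out. The adjusted p-value of rds1 (edgeR or DESeq2) was at most 0.0026 under every alternative that was run.

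The gene obr1 (SPAC3C7.14c) encodes a flavodoxin-like protein. Its level was 857, 962 and 981 CPM in pof8+ and 736, 677 and 694 CPM in pof8Δ, without overlap. The log2 fold change was -0.41 (standard error 0.0920, interval -0.60 to -0.22, edgeR adjusted p = 0.00457). With the spread of each RNA taken alone it missed the threshold (edgeR adjusted p = 0.0567). For grx1, a glutaredoxin, the levels were 122, 121 and 148 CPM in pof8+ and 112, 112 and 103 CPM in pof8Δ. The change of -0.26 was below an unadjusted p-value of 0.05 and missed after adjustment (edgeR adjusted p = 0.198).

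The rise that passed was in pfl2 (SPAPB15E9.01c), a cell-surface flocculin that mediates adhesion between cells. It was at 1992, 1618 and 1618 CPM in pof8+ and at 2312, 2210 and 2215 CPM in pof8Δ. The pof8Δ libraries were all above the pof8+ libraries, of which replicate 1 was nearest to them. The log2 fold change was 0.37 (standard error 0.0968, interval 0.16 to 0.57, edgeR adjusted p = 0.0121). The call was lost with DESeq2 size factors over the 40 RNAs (edgeR adjusted p = 0.0859), with the spread of each RNA alone (edgeR adjusted p = 0.183), and without pof8+ replicate 2 (edgeR adjusted p = 0.0528) or replicate 3 (edgeR adjusted p = 0.0553).

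The gene hrf1, which codes for a component of transport vesicles of the early secretory pathway, was at 20.8, 19.02 and 27.1 CPM in pof8+ and at 27.4, 28.5 and 28.3 CPM in pof8Δ. The lowest pof8Δ library was barely above the highest pof8+ library. Its log2 fold change of 0.33 did not pass (edgeR adjusted p = 0.198), and without pof8+ replicate 3 it was 0.50 and passed (edgeR adjusted p = 0.00215). Before adjustment, 5 RNAs passed 0.05 as lower and 2 as higher.

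**Figure D2:**
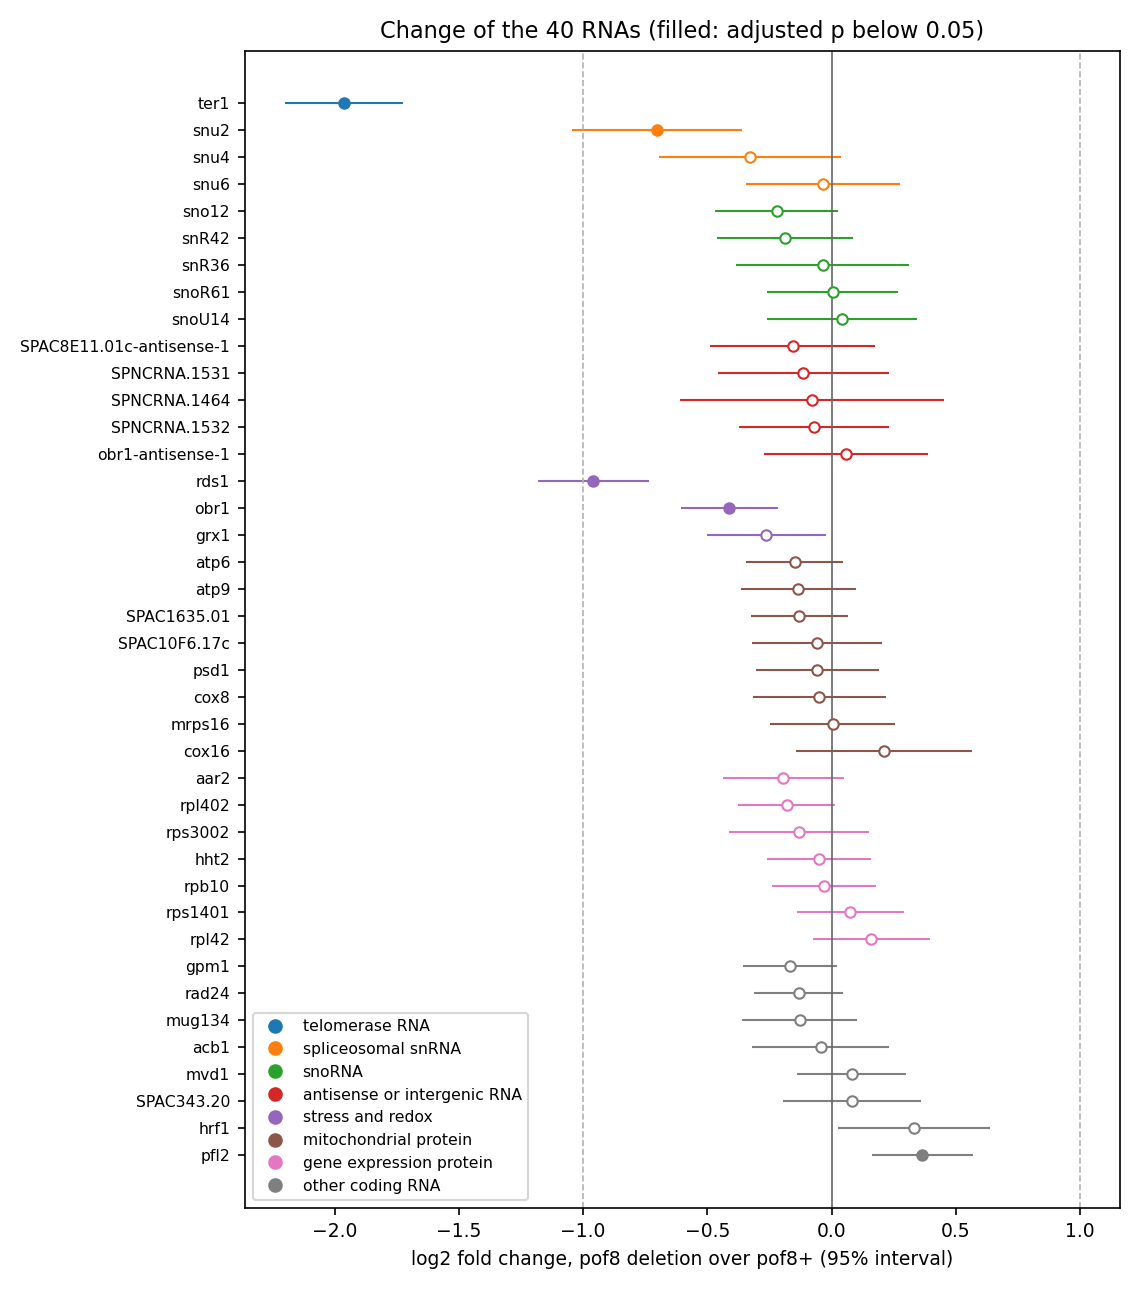
Log2 fold change of pof8Δ over pof8+ (x axis) with its 95% interval for each of the 40 RNAs, grouped and coloured by role. Filled points have an adjusted p-value below 0.05 and dashed lines mark changes of -1 and 1. The interval of ter1, -2.20 to -1.72, lies wholly below -1, and 33 of the 40 intervals lie within 0.58 of 0.

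Beside shares over all 40 RNAs of 10% passing as lower and 2.5% as higher, none of the 8 mitochondrial protein genes passed. They ranged from -0.15 (atp6) to 0.21 (cox16), with 6 below 0, and all 8 intervals lay within 0.58 of 0. The mitochondrially encoded atp6 and atp9, subunits of the ATP synthase, were at 1177 ± 82.3 and 2413 ± 253 CPM in pof8+ and at 1062 ± 70.2 and 2199 ± 332 CPM in pof8Δ (mean ± SD, n = 3). Their libraries overlapped between the groups. The nuclear genes psd1, a phosphatidylserine decarboxylase, and cox8, a cytochrome oxidase subunit, changed by -0.06 and -0.05. For cox16, an assembly factor of the same oxidase and the least abundant coding RNA per length, the levels were 6.42, 6.42 and 8.57 CPM in pof8+ and 6.67, 9.14 and 8.92 CPM in pof8Δ. These overlapped, and the interval of the change was -0.14 to 0.56.

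None of the 7 genes for gene expression proteins passed either. Of all 40 RNAs, 10% passed as lower, 2.5% passed as higher and 20% were lower without overlap. Aar2, which escorts the U5 particle of the spliceosome during its assembly, was at 59.5, 62.4 and 67.8 CPM in pof8+ and 54.3, 56.3 and 55.2 CPM in pof8Δ. The groups did not overlap, yet the change of -0.19 missed the threshold (edgeR adjusted p = 0.369). Rpb10, a subunit shared by the RNA polymerases, changed by -0.03. The core histone gene hht2 changed by -0.05, and the ribosomal protein genes rpl402, rps3002, rps1401 and rpl42 by -0.18, -0.13, 0.08 and 0.16. Rpl42 was at 421, 439 and 529 CPM in pof8+ and at 528, 570 and 455 CPM in pof8Δ. Rpl402, the most abundant of them per length, was at 3805, 4186 and 3404 CPM in pof8+ and at 3461, 3262 and 3339 CPM in pof8Δ. Both overlapped between the groups.

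Among the 8 other coding RNAs, pfl2 passed, and gpm1, rad24 and hrf1 were without overlap between the groups. Over all 40 RNAs, 2.5% passed as higher, 20% were lower without overlap and 5% were higher without overlap. Gpm1, a glycolytic phosphoglycerate mutase, was at 7864, 8989 and 7959 CPM in pof8+ and at 7848, 7060 and 7184 CPM in pof8Δ. The level in pof8Δ replicate 1 was barely below that of the lowest pof8+ library, and the change of -0.17 missed the threshold (edgeR adjusted p = 0.286). Rad24, an adaptor protein of the DNA damage checkpoint, was at 1541, 1680 and 1571 CPM in pof8+ and at 1464, 1461 and 1448 CPM in pof8Δ. Its change of -0.13 also missed (edgeR adjusted p = 0.4). With TMM or DESeq2 factors over the 40 RNAs, the groups overlapped for gpm1 and for rad24.

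Over the 40 RNAs, the groups did not overlap for 8 that were lower (20%) and for 2 that were higher (5%). With 3 libraries against 3, the exact permutation test of a single RNA (two-sided, 20 assignments of libraries) cannot go below p = 0.1, which each of these 10 RNAs reached. The lower RNAs were ter1, snu2, rds1, obr1, grx1, aar2, gpm1 and rad24, and the higher RNAs were pfl2 and hrf1. The scaling moved part of this list. With TMM or DESeq2 factors over the 40 RNAs, 6 were lower and 4 were higher, since gpm1 and rad24 came to overlap whereas rpb10 and rps1401 separated upward.

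The median log2 fold change was -0.07 over all 40 RNAs, and 29 of them were below 0. TMM factors computed over the 40 RNAs shifted this median by 0.10, to 0.03, and 19 RNAs were then below 0. Relative to the median of all 40, the changes were -1.89 for ter1, -0.88 for rds1, -0.63 for snu2, -0.34 for obr1 and 0.44 for pfl2. The direction of small changes therefore depends on the scaling, while these 5 kept theirs under every alternative that was run.

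The median log2 fold change was -0.06 for the 26 coding RNAs and -0.10 for the 14 non-coding RNAs. The means were further apart, at -0.08 and -0.27, and the mean of the non-coding RNAs was -0.14 without ter1. The difference between the classes was not tested. Of the coding RNAs, 18 were below 0, 2 passed as lower and 1 as higher. Of the non-coding RNAs, 11 were below 0, 2 passed as lower and 0 as higher. Over all 40 RNAs, 10% passed as lower and 2.5% as higher.

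The classes differed more in their summed level. Coding RNAs together took 22347, 24435 and 22536 CPM in pof8+ and 22611, 20715 and 20944 CPM in pof8Δ, and these groups overlapped. Non-coding RNAs together took 1083, 1322 and 970 CPM in pof8+ and 834, 693 and 729 CPM in pof8Δ, without overlap. Once ter1 was taken out, the non-coding sums were 849, 1068 and 765 CPM in pof8+ and 774, 635 and 669 CPM in pof8Δ, and the groups overlapped.

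Abundance is given per length, as RPKM (read count divided by length and library total), because the RNAs run from 102 (snu6) to 4356 bases (pfl2). In pof8+ the most abundant RNAs were atp9 (10723 RPKM), gpm1 (10590 RPKM) and rpl402 (3034 RPKM). The least abundant were SPNCRNA.1531 (1.02 RPKM), SPAC8E11.01c-antisense-1 (1.38 RPKM) and SPNCRNA.1464 (3.06 RPKM). The median was 252 RPKM for coding and 175 RPKM for non-coding RNAs. TER1, at 164 RPKM in pof8+ and 42.0 RPKM in pof8Δ, stood at place 23 of 40 in pof8+. These are levels in the libraries. How well RNAs little longer than the 100-base reads, such as snu6, are recovered was not tested. The order may therefore differ from that in cells.

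The change was not confined to either end of this range. Of the upper 20 RNAs by RPKM, obr1, snu2 and pfl2 had an adjusted p-value below 0.05, and of the lower 20, ter1 and rds1. Over all 40 RNAs, 10% passed as lower and 2.5% as higher. Among the alternatives that were run, snu2 passed in 9 of 14 and pfl2 in 11 of 15. The RNA obr1 passed in 14 of 15, and ter1 and rds1 in 15 of 15. The median log2 fold change was -0.13 in the upper 20 and -0.05 in the lower 20. Spearman's rho between the level in pof8+ and the change was -0.34 across the 40 RNAs, which are not independent and share the same libraries. The lowest count in any library was 98 reads. In pof8+ the coefficient of variation (CV) expected from counting had a median of 0.98% for coding and 2.95% for non-coding RNAs, and of 7.27% for the 5 antisense and intergenic RNAs.

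The observed spread between replicates was larger than that in both classes. The CV in pof8+ had a median of 10.01% for coding RNAs and 12.3% for non-coding RNAs, and in pof8Δ of 4.92% and 9.38%. It was higher in pof8+ than in pof8Δ for 32 of the 40 RNAs, among them 21 of 26 coding and 11 of 14 non-coding RNAs. This order holds for these libraries only, since it was not tested.

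SPNCRNA.1464 varied most. It was at 1.95, 2.16 and 3.94 CPM in pof8+ and at 1.73, 2.70 and 3.15 CPM in pof8Δ, a CV of 40.7% and 28.9%. Its highest library in pof8+ was replicate 3. Next came snu2, with CVs of 31.1% and 13.8%, and snu4, with 24.1% and 17.3%. The smallest spread was that of rad24, with 4.56% and 0.602%, followed by rpb10 with 4.97% and 3.11% and aar2 with 6.68% and 1.75%. For TER1 the CV was 10.6% in pof8+ and 2.07% in pof8Δ.

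**Figure D3:**
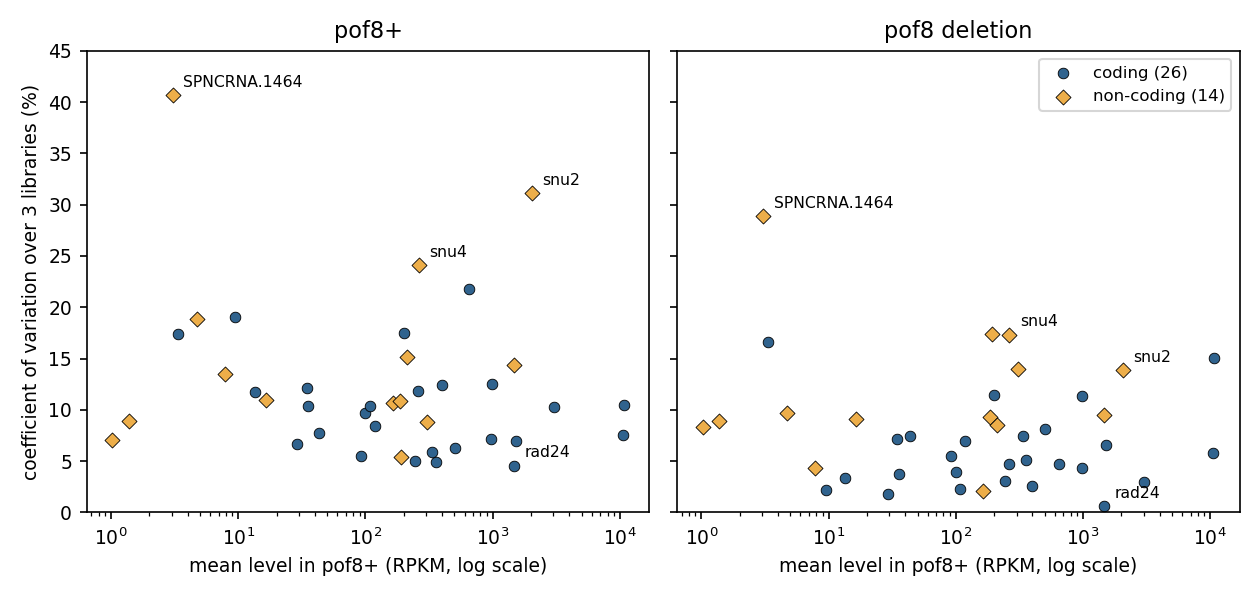
Coefficient of variation over 3 libraries (y axis, percent) against the mean pof8+ level (x axis, RPKM, log scale) for coding (circles) and non-coding RNAs (diamonds), in pof8+ (left) and pof8Δ (right). SPNCRNA.1464 has the highest value in both panels, 40.7% and 28.9%, and rad24 the lowest, 4.56% and 0.602%.

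Part of the spread ran along RNA class. In pof8+ replicate 3, 6 of the 8 snRNAs and snoRNAs lay below the mean of their group, with a median log2 deviation of -0.20, whereas the 32 other RNAs had a median of 0.11 with 8 below. In pof8Δ replicate 1 the order was turned, with 1 of the 8 below the mean and a median deviation of 0.17, against 0.020 for the other RNAs. Below the mean were also 1 of the 8 in pof8+ replicate 2, 3 in pof8+ replicate 1, and 6 each in pof8Δ replicates 2 and 3. These 8 RNAs are 102 to 317 bases long, a range that also holds the coding RNA atp9, at 225 bases, while rps3002 and cox8 are almost as short, at 322 and 325 bases. Spearman's rho between length and deviation was 0.37 in pof8+ replicate 3, -0.53 in pof8+ replicate 2 and -0.69 in pof8Δ replicate 1, across the same 40 RNAs. It was 0.04 in pof8+ replicate 1, 0.33 in pof8Δ replicate 2 and 0.40 in pof8Δ replicate 3. The part of these library differences in the U2, U4 and sno12 values was not tested beyond leaving out each library. Without the snRNAs and snoRNAs in the fit, ter1, rds1, obr1 and pfl2 had an adjusted p-value below 0.05.

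**Figure D4:**
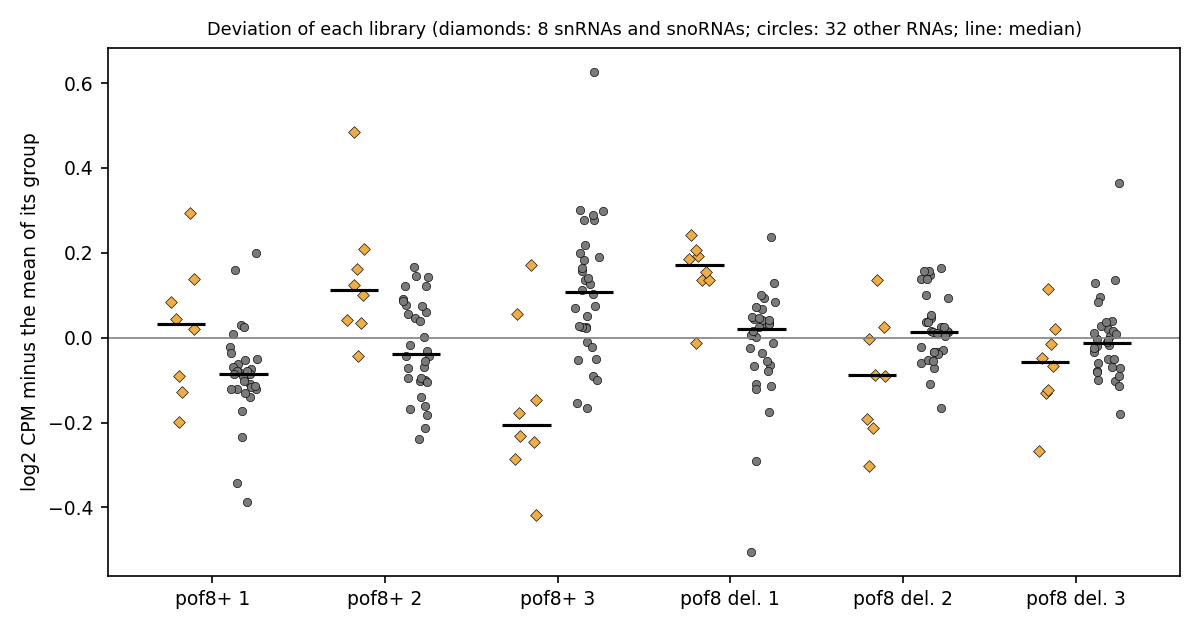
Deviation of each RNA from the mean of its group (y axis, log2 CPM) in each of the 6 libraries (x axis), for the 8 snRNAs and snoRNAs (diamonds) and the 32 other RNAs (circles). Lines are medians. In pof8+ replicate 3 the diamonds have a median of -0.20 and the circles of 0.11.

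Of the listed RNAs, 8 pairs overlap in the genome. The overlap is taken from the annotation of ASM294v3, and for SPNCRNA.1531 and SPNCRNA.1532 from the study's notes. The strands of the members were not compared here. The counting of the RNA-Seq reads is not stated to use strand, so reads of overlapping members may not be fully separated. The pair rds1 and SPAC343.20 differed most, with log2 fold changes of -0.96 and 0.08. SPAC343.20 was at 30.2, 23.8 and 27.5 CPM in pof8+ and at 27.6, 29.0 and 29.5 CPM in pof8Δ, and it did not follow the fall of rds1. The pair obr1 and obr1-antisense-1 stood at -0.41 and 0.06. In the 6 other pairs the members differed by less than 0.3, the pair aar2 and rps1401 included, at -0.19 and 0.08. Rad24 and its antisense partner stood at -0.13 and -0.16, and psd1 and snR36 at -0.06 and -0.04.

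The size of the change did not follow the IP ratio. The ratio of the Lsm8 IP to the control IP, each scaled by its library median, ranged from 1.53 (rad24) to 916 (SPNCRNA.1532), and each IP was a single library. It was 159 for ter1, 466 for snu4, 30.4 for snu6, 18.7 for snu2, 2.53 for rds1 and 1.60 for obr1. To call an RNA enriched, the study required a ratio above 2 and a normalized IP count at least 10 above that of the control. Below the cut on the ratio lay rad24, hrf1, rps3002, rpl402, obr1, obr1-antisense-1, rpl42, atp9 and gpm1. Of the 12 RNAs with a ratio above 10, the median log2 fold change was -0.05, and 2 (ter1 and snu2) passed as lower. Of the 28 RNAs with a ratio of 10 or less, the median was -0.13, and 2 (rds1 and obr1) passed as lower. The share that passed as lower over all 40 RNAs was 10%. Spearman's rho between the log2 ratio and the change was 0.00 across the 40 RNAs and 0.07 without ter1. The IP reads were unstranded, and several overlapping members had nearly equal IP read counts. These were 71324 and 71287 for SPNCRNA.1531 and SPNCRNA.1532, and 5834 and 5943 for obr1 and obr1-antisense-1. They differed more in other pairs, such as rad24 and its antisense partner, at 3487 and 1503. The ratios of overlapping members may thus rest on the same reads.

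**Figure D5:**
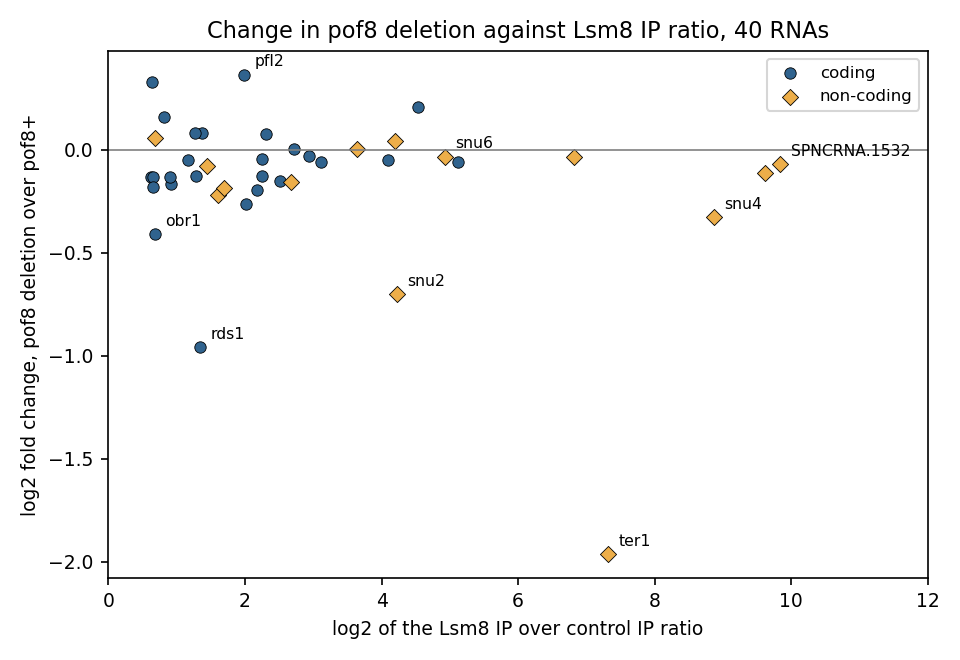
Log2 fold change of pof8Δ over pof8+ (y axis) against the log2 ratio of Lsm8 IP to control IP (x axis) for the coding (circles) and non-coding RNAs (diamonds). Ter1 lies at -1.96, far below the other RNAs of high ratio, and SPNCRNA.1532, which has the highest ratio, lies at -0.07.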

How the data were processed

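RNA-Seq counts were analysed from 3 pof8+ and 3 pof8Δ libraries. The authors aligned reads to ASM294v2 with STAR 2.5.2b and deposited counts of unambiguous uniquely mapped reads per gene for 40 RNAs, without normalization, together with the average RPKM over libraries and their own fold changes and tests by edgeR 3.14.0, which were not used. For the IP, the authors deposited a signal (reads per gene over the median of the library) and its ratio to the control IP. The study's filter on low counts (1 CPM, 3 libraries) removed 0 of the 40.

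Library totals and gene lengths were solved from the counts and the average RPKM, and all 40 lengths came out whole within 0.001 bases. Counts scaled by these totals were fitted with edgeR 4.0.16 (quasi-likelihood) in R 4.3.3. TMM could not be computed over all genes from 40 RNAs. Each standard error is the change over the root of its F statistic. The fit was tested on simulated data. DESeq2 1.42.0 served for alternatives, and Python 3.11.15, NumPy 2.4.6, pandas 2.3.3, SciPy 1.17.1 and Matplotlib 3.10.9 for other steps.

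The RNAs and lists were chosen with earlier results of these data known. The RNAs named by rule were those with an adjusted p below 0.05, the 5 largest changes in each direction, RNAs without overlap, snRNAs, snoRNAs and mitochondrially encoded RNAs, the 3 extremes of spread and of level, and overlapping pairs that differed, and others were named as members of their lists. Values per library are given for part of them and changes for the rest. Correlations across RNAs are descriptions. The alternatives changed the scaling, test, filter, threshold and class summary, blocked on the replicate number, or dropped a library. A robust fit, a fit on the spread of each RNA alone and a fit without snRNAs and snoRNAs were added after the data were seen.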

Additional observations from a re-analysis of the deposited data

How the results depend on the processing

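TER1 stayed the RNA called lower, and 0 were called higher, under the scaling, test, filter and block alternatives. The count of called RNAs was 3 lower with a threshold of 0.58 and 4 lower and 1 higher with none, and 1 to 2 lower when a library was left out, where rds1 was the added RNA. RNAs with an adjusted p-value below 0.05 numbered 2 lower and 0 higher with the spread of each RNA alone, an alternative chosen after seeing the data, and 0 higher with DESeq2 size factors. Without a library there were 3 to 6 lower and 0 to 1 higher. With TMM and with DESeq2 factors over the 40 RNAs, the coding median was 0.041 and 0.034, the non-coding median 0.0078 and 1.07e-05, and 4 RNAs were higher without overlap under each. The mean of the non-coding RNAs was -0.27, and their median without a library lay between -0.17 and -0.090. Whether the replicate numbers pair the libraries is not given by the labels and was not settled here. The deviations of same-numbered libraries correlated at 0.335, -0.677 and 0.198. With the replicate block, 4 RNAs were lower and 1 higher at an adjusted p-value below 0.05, and TER1 changed by -1.96. Small changes turned sign with TMM and DESeq2 factors, to 0.040 and 0.034 for SPAC10F6.17c, 0.030 and 0.026 for SPNCRNA.1464, 0.029 and 0.022 for SPNCRNA.1532, 0.057 and 0.051 for acb1, 0.051 and 0.042 for cox8, 0.048 and 0.039 for hht2, 0.042 and 0.034 for psd1, 0.068 and 0.060 for rpb10, 0.059 and 0.049 for snR36 and 0.062 and 0.053 for snu6. The scaling itself shifts every change by a like amount. Leaving out a library in turn also turned signs, with ranges of -0.14 to 0.038 for SPAC10F6.17c, -0.0051 to 0.16 for SPAC343.20, -0.28 to 0.30 for SPNCRNA.1464, -0.13 to 0.046 for SPNCRNA.1532, -0.13 to 0.11 for acb1, -0.13 to 0.013 for cox8, -0.053 to 0.091 for mrps16, -0.051 to 0.21 for obr1-antisense-1, -0.10 to 0.0089 for psd1, -0.065 to 0.0068 for rpb10, -0.28 to 0.031 for rps3002, -0.12 to 0.032 for snR36, -0.066 to 0.094 for snoR61, -0.065 to 0.15 for snoU14 and -0.16 to 0.090 for snu6. None of these RNAs passed the test under any alternative run. The filter on low counts removed 0 RNAs. Where 1 library of a group is left out, the fit rests on fewer libraries, and the cause of a lost or gained call was not tested further. The lowest count was 98 reads, for SPNCRNA.1464, whose CV in pof8+ was 40.7% where counting alone gives 8.42%.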
